A study of Rattus norvegicus with 12 samples.

Results

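The complement components and regulators are 38 genes listed by name for their role in the cascade. Of these, 32 had a row of their own among the 18166 genes measured: 31 were found by symbol, and Cd59 was found by gene ID under the older symbol Cd59b. C4a and C4b share a row, and no row carried the symbols C2, C5ar1, C5ar2 or Cfi, so that these 6 genes were not analysed here.

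Total RNA was hybridised to 12 GeneChip Rat Gene 2.0 ST arrays, 3 in each of 4 groups: outer medulla (OM) of congestive kidneys, OM of control kidneys, cortex (Cx) of congestive kidneys and Cx of control kidneys. All kidneys came from 3 rats (Sprague-Dawley males aged 7 to 9 weeks) in which the inferior vena cava (IVC) had been tied off completely between the renal veins 3 days earlier. The congestive kidney was the left one and the control kidney was the right one of the same rat, so that congestion and side cannot be told apart, and the control kidney also belonged to an operated animal. The comparisons ask which transcripts differed in the congestive kidney within each region, and whether the 2 regions differed in this. The deposited values run between 1.21 and 13.5 and were taken as log2. Tissue pieces were measured whole, so that a change in the number of cells of a type and a change in RNA per cell cannot be told apart.

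Complement is a cascade of plasma and membrane proteins that tags and lyses cells and recruits leukocytes. The classical route starts with C1q and its proteases C1r and C1s, the lectin route starts with mannose-binding lectins and ficolins, and both meet the alternative route at cleavage of C3. C5 to C9 then build the pore of the membrane attack complex, while inhibitors such as C1 inhibitor, CD46, CD55 and CD59 hold the cascade in check on host cells. Most plasma components come from the liver, but tissue macrophages are known for making C1q, and kidney tubules for making C3.

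Of the 11 members called higher in both regions, stretches upstream of the start sites are shown for those at least 1.5-fold higher in both. Of these 8 genes, 5 had an entry in the RefSeq table used (build GRCr8), namely C1qa, C1qb, C1r, Cfp and C3ar1. C1qc, C1s and C7 are named only. Each run holds the 250 bases before the start site, read 5′ to 3′ on the strand of the gene. C1qa lies at chr5:154419934-154420183 and C1qb at chr5:154407828-154408077, both on the minus strand. C1r lies at chr4:159098763-159099012 on the plus strand, Cfp at chrX:3715301-3715550 on the plus strand and C3ar1 at chr4:157756531-157756780 on the minus strand. Capitals mark matches on either strand to GGAAGT (the core bound by ETS factors), TTGCNNAA (a loose C/EBP pattern holding the half-site TTGC) or TGANTCA (AP-1). Of these matches, 0 overlap each other within a stretch.
C1qa: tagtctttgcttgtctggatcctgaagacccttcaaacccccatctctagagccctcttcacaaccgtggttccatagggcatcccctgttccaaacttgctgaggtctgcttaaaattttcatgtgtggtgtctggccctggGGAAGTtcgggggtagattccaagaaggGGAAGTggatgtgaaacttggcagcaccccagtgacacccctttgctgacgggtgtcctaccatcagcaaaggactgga
C1qb: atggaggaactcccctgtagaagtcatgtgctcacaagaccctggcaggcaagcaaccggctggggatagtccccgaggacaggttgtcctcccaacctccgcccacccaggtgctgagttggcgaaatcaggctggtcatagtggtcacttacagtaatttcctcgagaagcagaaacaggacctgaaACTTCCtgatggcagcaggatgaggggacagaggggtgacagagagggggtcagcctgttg
C1r: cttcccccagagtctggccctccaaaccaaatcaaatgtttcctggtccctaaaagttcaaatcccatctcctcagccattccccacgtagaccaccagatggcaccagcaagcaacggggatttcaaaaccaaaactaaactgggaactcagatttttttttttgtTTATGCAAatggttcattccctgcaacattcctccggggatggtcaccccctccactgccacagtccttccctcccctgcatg
Cfp: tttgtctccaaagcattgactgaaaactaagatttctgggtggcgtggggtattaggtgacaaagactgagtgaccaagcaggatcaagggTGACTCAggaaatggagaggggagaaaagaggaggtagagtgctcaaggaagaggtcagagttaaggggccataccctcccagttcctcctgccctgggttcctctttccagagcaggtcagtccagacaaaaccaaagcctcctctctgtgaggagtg
C3ar1: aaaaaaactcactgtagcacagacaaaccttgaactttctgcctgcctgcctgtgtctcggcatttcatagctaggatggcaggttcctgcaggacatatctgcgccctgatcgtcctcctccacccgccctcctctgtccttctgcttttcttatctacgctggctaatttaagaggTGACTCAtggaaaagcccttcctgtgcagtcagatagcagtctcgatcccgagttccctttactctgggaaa
These 3 motifs were chosen out of 12 searched, after their matches had been seen, so that the capitals are a description only. GGAAGT was found in 4 of the 22 stretches that members have and in 19.2% of all 33469 (C1qa with matches at 107 to 102 and 79 to 74 bases before the start and C1qb with a match at 61 to 56 bases among them). TTGCNNAA was found in 7 of 22 and in 9.22% of all stretches, with C1r at 83 to 76 bases. A longer C/EBP pattern in the search, TTGCNNCAA, was found in 1 of 22 (C6) and in 1.75% of all stretches. TGANTCA was found in 3 of 22 and in 6.34% of all stretches, with Cfp at 159 to 153 bases and C3ar1 at 72 to 66 bases.

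In the OM of congestive kidneys 17 of the 32 members rose and 3 fell, and 12 of those that rose did so by at least 1.5-fold. Over all genes 11.8% were called higher and 11.3% were called lower in this comparison (limma, Benjamini-Hochberg adjusted p under 0.05). The median log2 change was 0.34 over the members and -0.01 over all genes. In Cx 11 members rose and 1 fell, against 7.98% of all genes called higher and 3.64% called lower, with a median of 0.26 over the members and -0.02 over all genes. All 11 members that rose in Cx were also called higher in OM: C1qa, C1qb, C1qc, C1r, C1s, Cfp, C7, C3ar1, Cd93, Cd46 and Serping1. The methods' t-test was also run, unpaired and at the unadjusted p under 0.05 that the methods name. It gave 14 members higher and 3 lower in OM and 12 higher and 3 lower in Cx. The shares of all genes given above are for adjusted limma calls, so that they cannot be set beside these counts. After Benjamini-Hochberg adjustment, the methods' t-test left 9 higher and 0 lower in OM and 3 higher and 1 lower in Cx. Those in OM were C1qa, C1qb, C1qc, C1r, C1s, Cfp, C6, C7 and Cd46. Those in Cx were C1qc, C7 and Serping1, higher, and C1qbp, lower.

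**Figure D1:**
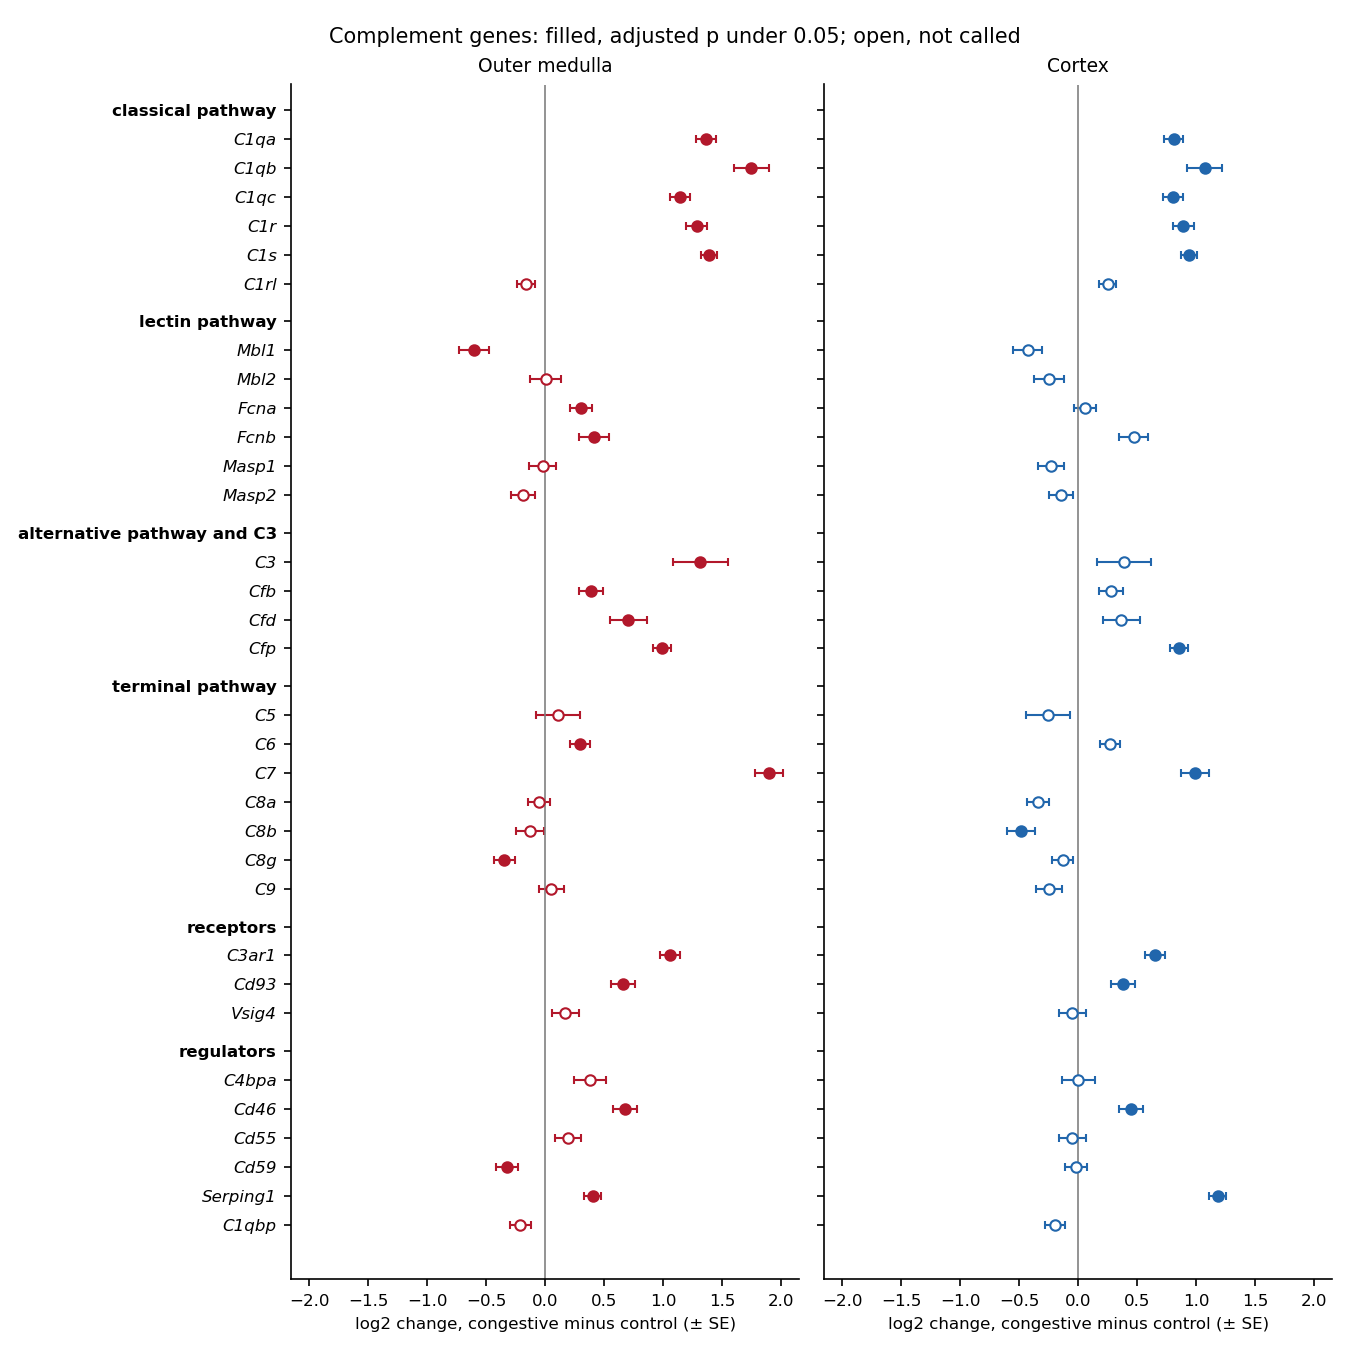
Log2 change, congestive minus control kidney, of the 32 members (horizontal axis, point ± SE of the fit) in OM (left panel) and Cx (right panel), grouped by role, with filled points for adjusted p under 0.05. The C1q chains, C1r and C1s lie between 1.14 and 1.75 in OM and between 0.80 and 1.07 in Cx, while the lectin route lies between -0.60 and 0.47.

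Cell markers moved with these genes and are given here once. Of 15 macrophage and monocyte markers, 13 rose in OM and 11 in Cx and 0 fell. Csf1r, the receptor for colony-stimulating factor 1, rose by 1.54 in OM and 1.33 in Cx, while the scavenger receptor Cd163 rose by 0.65 in OM and had a change of -0.03 in Cx. Their summed linear level was 11000 to 14200 in congestive OM and 5100 to 5540 in control OM, and 8930 to 10500 in congestive Cx and 4160 to 4650 in control Cx. Of 6 fibroblast and pericyte markers, 5 rose in each region, and their sum was 7600 to 10200 in congestive OM and 2670 to 3160 in control OM, and 4840 to 6600 in congestive Cx and 1820 to 2790 in control Cx. Of 4 endothelial markers, Cdh5 rose in both regions and Tek fell in OM. Of 2 red cell markers, Slc4a1 (also a gene of intercalated cells) fell in both. By limma 0 of 6 neutrophil, 0 of 5 lymphocyte and 0 of 5 hepatocyte markers were called in either region. At an unadjusted p under 0.05, limma gave 1 neutrophil and 1 lymphocyte marker in OM and 1 neutrophil marker in Cx, the methods' t-test gave 1 neutrophil marker in Cx, and the methods' t-test gave 0 of them after adjustment. Region markers fitted the labels: all 4 thick ascending limb markers were higher in OM than in Cx in both kidneys, and of 4 cortical nephron markers 4 were lower in OM in congestive and 3 in control kidneys. The cortical nephron sum varied among the congestive OM arrays, at 7930, 4790 and 9800, against 9690, 9700 and 9750 in control OM. The part of any of these in the changes of complement genes was not tested.

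Of the 6 measured genes of the classical route, 5 rose in both regions, and C1rl was called in neither. The shares called higher over all genes were 11.8% in OM and 7.98% in Cx. After adjustment, the methods' t-test, which ignores the pairs, kept all 5 in OM and 1 (C1qc) in Cx. C1qa encodes the A chain of C1q, the molecule that recognises bound antibody and dying cells. Its log2 values were 8.82, 9.09 and 8.90 in congestive OM, against 7.42, 7.61 and 7.70 in control OM. In Cx they were 8.66, 8.69 and 8.78 in congestive kidneys, against 7.75, 7.89 and 8.06 in control kidneys. The groups did not overlap in either region, and the change was 1.36 ± 0.08 in OM (SE, adjusted p = 4.26e-05) and 0.81 ± 0.08 in Cx (adjusted p = 0.00105).

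C1qb, the B chain, had values of 8.89, 9.49 and 8.74 in congestive OM and 7.18, 7.29 and 7.42 in control OM. The Cx values were 8.62, 8.83 and 8.51 in congestive kidneys and 7.45, 7.68 and 7.62 in control kidneys. Congestive OM array 2 stood highest, and the groups did not overlap. The change was 1.75 ± 0.15 in OM (a 3.36-fold rise, adjusted p = 0.000176) and 1.07 ± 0.15 in Cx (adjusted p = 0.00389). The Cx call was lost without replicate 1 (adjusted p = 0.052) and with the methods' t-test, over a range of 0.000834 to 0.052 for all alternatives. C1qc, the C chain, had 8.09, 8.17 and 8.16 in congestive OM and 6.92, 6.96 and 7.12 in control OM, and in Cx 7.90, 7.89 and 7.76 in congestive kidneys and 6.96, 7.07 and 7.11 in control kidneys. It rose by 1.14 ± 0.08 in OM (adjusted p = 8.63e-05) and by 0.80 ± 0.08 in Cx (adjusted p = 0.00105). The genes of the 3 chains lie side by side on chromosome 5 with 0 other protein-coding genes between them, in the order C1qb, C1qc, C1qa. All 3 rose in all 3 pairs of kidneys in each region.

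The proteases of the C1 complex rose to a like extent. C1r cleaves and activates C1s, and its values were 10.99, 10.97 and 10.62 in congestive OM, against 9.56, 9.62 and 9.54 in control OM. In Cx it had 10.05, 10.39 and 10.22 in congestive kidneys and 9.26, 9.50 and 9.21 in control kidneys, a change of 0.89 ± 0.09 (adjusted p = 0.000942) beside 1.28 ± 0.09 in OM (adjusted p = 7.18e-05). C1s cleaves C4 and C2, and its values were 9.53, 9.63 and 9.41 in congestive OM and 8.10, 8.25 and 8.05 in control OM. In Cx they were 8.42, 8.93 and 8.98 in congestive kidneys and 7.50, 7.998 and 8.02 in control kidneys. Array 1 was the lowest of both Cx groups, so that the change was even over pairs, at 0.94 ± 0.07 (adjusted p = 0.00027), beside 1.39 ± 0.07 in OM (adjusted p = 2.15e-05). C1rl, a C1r-like protease that lies next to C1r and C1s on chromosome 4 with 0 protein-coding genes between, had a change of -0.16 in OM (adjusted p = 0.164) and 0.25 in Cx (adjusted p = 0.0696).

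**Figure D2:**
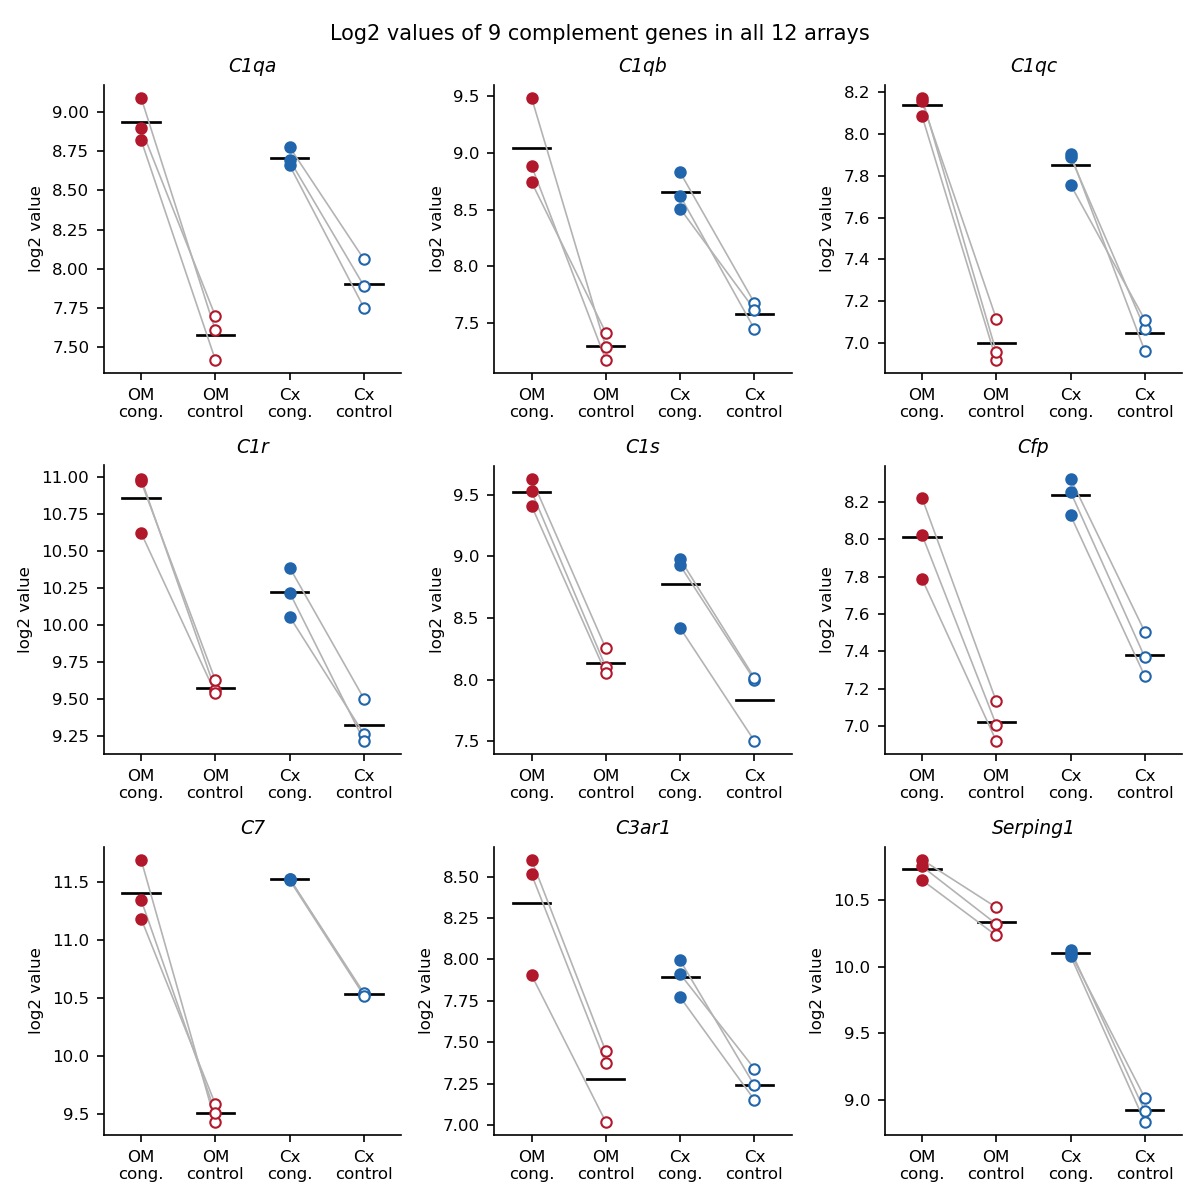
Log2 values (vertical axis, a separate scale for each gene) of the 8 members at least 1.5-fold higher in both regions and of Serping1 in all 12 arrays, with congestive (filled) and control (open) kidneys of OM (red) and Cx (blue), bars for group means and lines for kidneys of the same number. All 54 lines fall towards the control kidney. The genes shown were picked because they were called higher in both regions, so that this direction largely follows from the choice. For C7 the 3 arrays of each Cx group lie nearly on one point.

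In the lectin route 2 of 6 measured genes rose and 1 fell in OM, against 11.8% and 11.3% of all genes. In Cx 0 were called by limma, against 7.98% higher and 3.64% lower over all genes. At an unadjusted p under 0.05, limma gave 1 higher and 1 lower in Cx, and 0 passed the methods' t-test there. These small counts were not tested against the shares. Mbl1, a mannose-binding lectin, had 6.70, 6.36 and 6.70 in congestive OM, against 7.12, 7.22 and 7.23 in control OM. Its Cx values were 6.56, 6.36 and 6.35 in congestive kidneys and 6.84, 7.12 and 6.60 in control kidneys. It was lower in the congestive kidney in every pair and the groups did not overlap. It fell by 0.60 in OM (SE 0.13, adjusted p = 0.0107), and the change in Cx was -0.43 ± 0.13 (adjusted p = 0.0655). The ficolins Fcna and Fcnb, which bind acetylated sugars, rose by 0.30 (adjusted p = 0.0464) and 0.42 (adjusted p = 0.0477) in OM. Both of these calls were lost without replicates 1 and 2, and that of Fcnb also without the pair block (adjusted p = 0.0889; over all its alternatives 0.0306 to 0.305). In Cx the change of Fcnb was 0.47 with an adjusted p of 0.05 that fell just outside the threshold. The proteases Masp1 and Masp2 and the lectin Mbl2 were called in neither region, with changes between -0.25 and 0.00.

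All 4 measured genes of the alternative route and C3 rose in OM, and Cfp rose in Cx. The shares called higher over all genes were 11.8% in OM and 7.98% in Cx. C3, the central component, had 8.79, 7.43 and 9.06 in congestive OM, against 6.84, 6.78 and 7.71 in control OM. Cx arrays gave 7.28, 7.50 and 8.25 in congestive kidneys and 7.28, 7.14 and 7.45 in control kidneys. The groups overlapped in both regions: congestive OM array 2 lay below control OM array 3, although each congestive OM array was above the control of its own pair. The change was 1.32 ± 0.23 in OM (a 2.49-fold rise, adjusted p = 0.00496) and 0.39 in Cx (95% interval -0.14 to 0.92, adjusted p = 0.319). The OM call was lost with the methods' t-test (adjusted p = 0.256; over all alternatives 0.00276 to 0.256), which ignores the pairs. C3 had the widest spread among members in both OM groups, with SD of 0.88 in congestive OM and 0.52 in control OM (n = 3 each).

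Properdin (Cfp), which stabilises the convertase of the alternative route, had 8.03, 7.79 and 8.22 in congestive OM, against 7.01, 6.92 and 7.13 in control OM. In Cx it had 8.26, 8.13 and 8.33 in congestive kidneys and 7.37, 7.27 and 7.50 in control kidneys. The groups did not overlap, and the changes of 0.99 ± 0.07 in OM (adjusted p = 9.62e-05) and 0.86 ± 0.07 in Cx (adjusted p = 0.000551) were close. Factor D (Cfd), the protease that cleaves factor B, had 6.28, 5.82 and 6.55 in congestive OM and 5.20, 5.61 and 5.73 in control OM, and in Cx 6.06, 5.75 and 5.92 in congestive kidneys and 5.58, 5.61 and 5.45 in control kidneys. It rose by 0.70 ± 0.16 in OM (adjusted p = 0.014), a call lost without replicate 1 (adjusted p = 0.122) and without replicate 3 (adjusted p = 0.0852), over a range of 0.00427 to 0.2 for all alternatives. Its change in Cx was 0.37 (95% interval 0.01 to 0.73, adjusted p = 0.177). Factor B (Cfb), the catalytic part of that convertase, rose by 0.39 in OM (adjusted p = 0.0273), a call lost without replicates 1 and 2, and its change in Cx was 0.28 (adjusted p = 0.119).

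Of 7 genes of the terminal route, 2 rose and 1 fell in OM, and 1 rose and 1 fell in Cx. The shares over all genes were 11.8% and 11.3% in OM, and 7.98% and 3.64% in Cx. These small counts were not tested against the shares. C7, which anchors the growing pore in the membrane, had 11.19, 11.69 and 11.35 in congestive OM, against 9.59, 9.43 and 9.51 in control OM. Cx arrays gave 11.53, 11.53 and 11.52 in congestive kidneys and 10.53, 10.54 and 10.52 in control kidneys. The SD within each Cx group was 0.01, so that the Cx groups lay far apart for their spread. C7 rose by 1.90 ± 0.12 in OM (a 3.73-fold rise, adjusted p = 4.39e-05), the largest change of any member in OM, and by 0.99 ± 0.12 in Cx (adjusted p = 0.00185), and both calls held under every alternative run.

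The remaining terminal genes moved little. C6, the partner C7 binds, rose by 0.29 in OM (adjusted p = 0.0442), a call lost without each replicate in turn, and its change in Cx was 0.27 (adjusted p = 0.0889). C6 and C7 have 1 protein-coding gene between them on chromosome 2. C8g, the lipocalin chain of C8, fell by 0.35 in OM (adjusted p = 0.0276), lost without replicates 1 and 2, and C8b, its beta chain, fell by 0.48 in Cx (adjusted p = 0.0379), lost without each replicate in turn. C5, C8a and C9 were called in neither region, with changes between -0.34 and 0.11. C5, which is cleaved to start the pore, had 8.70, 8.94 and 9.99 in congestive OM, against 9.05, 9.04 and 9.21 in control OM, and 9.81, 9.70 and 9.95 in congestive Cx, against 10.02, 10.08 and 10.11 in control Cx. Congestive OM array 3 stood at the level of the Cx arrays. Its cortical nephron sum of 9800 was the highest of its group and close to the control OM sums of 9690 to 9750. The control OM arrays had a C5 of only 9.04 to 9.21 at such sums. Congestive OM array 2 had the lowest sum, 4790, with a C5 of 8.94. Array 1 had a sum of 7930 and a lower C5, 8.70. A link between this sum and C5 was not tested.

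Of the 3 measured receptors, C3ar1 and Cd93 rose in both regions. C3ar1, the receptor of the anaphylatoxin C3a on myeloid cells, had 8.51, 8.60 and 7.91 in congestive OM, against 7.37, 7.45 and 7.02 in control OM. Cx values were 7.91, 7.99 and 7.77 in congestive kidneys and 7.34, 7.24 and 7.15 in control kidneys. Array 3 was the lowest of all 4 groups and the congestive and control groups did not overlap. The change was 1.06 ± 0.08 in OM (adjusted p = 0.00012) and 0.65 ± 0.08 in Cx (adjusted p = 0.00272). Cd93, a lectin-like receptor of endothelial and myeloid cells, had 8.19, 8.29 and 7.94 in congestive OM and 7.57, 7.70 and 7.18 in control OM, and in Cx 7.89, 8.11 and 7.58 in congestive kidneys and 7.78, 7.51 and 7.15 in control kidneys. It rose by 0.66 ± 0.10 in OM (adjusted p = 0.00284). In Cx its groups overlapped and it rose by 0.38 ± 0.10 (adjusted p = 0.0494), a call lost without each replicate in turn and without the pair block (adjusted p = 0.218; over all alternatives 0.0165 to 0.402). Vsig4, a C3b receptor of resident macrophages, was dim, at 4.06 to 4.49 in congestive kidneys and 3.91 to 4.40 in control kidneys, and was called in neither region (adjusted p = 0.349 in OM and 0.814 in Cx).

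Among the 6 measured regulators 2 rose and 1 fell in OM, against 11.8% and 11.3% of all genes. In Cx 2 rose, against 7.98% of all genes. These small counts were not tested against the shares. Serping1 encodes C1 inhibitor, which blocks C1r and C1s. Its values were 10.76, 10.65 and 10.81 in congestive OM, against 10.32, 10.24 and 10.45 in control OM. In Cx they were 10.10, 10.13 and 10.08 in congestive kidneys, against 9.01, 8.91 and 8.83 in control kidneys. Neither pair of groups overlapped, and the gap was far wider in Cx, where control kidneys were lowest. Serping1 rose by 1.18 ± 0.07 in Cx (a 2.27-fold rise, adjusted p = 0.000179), the largest change of any member there, and by 0.40 ± 0.07 in OM (adjusted p = 0.00527). The OM call was lost without replicate 1 (adjusted p = 0.0607) and without replicate 2 (adjusted p = 0.0568), over a range of 0.000266 to 0.0669 for all alternatives.

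Cd46, the membrane cofactor for cleavage of C3b, which in mice is known mainly from sperm, had 7.13, 7.24 and 7.22 in congestive OM and 6.59, 6.64 and 6.34 in control OM. In Cx it had 6.60, 6.81 and 6.68 in congestive kidneys and 6.36, 6.35 and 6.04 in control kidneys. The groups did not overlap, and it rose by 0.67 ± 0.10 in OM (adjusted p = 0.00265) and by 0.45 ± 0.10 in Cx (adjusted p = 0.0278), where the call was lost without each replicate in turn. Cd59, the membrane inhibitor of pore assembly, fell by 0.33 in OM (adjusted p = 0.0365), a call lost without replicates 1 and 3, and its change in Cx was -0.02 (adjusted p = 0.924). Cd55, which speeds the decay of convertases, had changes of 0.19 in OM (95% interval -0.07 to 0.45) and -0.05 in Cx (95% interval -0.31 to 0.21). C4bpa, the alpha chain of C4b-binding protein, had 0.38 in OM (adjusted p = 0.0899) and 0.00 in Cx, and C1qbp, a mitochondrial protein that binds C1q, had -0.21 in OM (adjusted p = 0.124) and -0.20 in Cx (adjusted p = 0.18).

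The change in OM minus the change in Cx was tested in the same fit. It was called higher for 1 member and lower for 1, against 0.804% and 0.815% of all genes, and its median was 0.25 over the members and 0.00 over all genes. C7 had the larger rise in OM, with a difference of 0.91 (95% interval 0.52 to 1.29, adjusted p = 0.0443), and its change was larger in OM than in Cx for all 3 replicate numbers. Serping1 had the larger rise in Cx, with a difference of -0.78 (95% interval -1.02 to -0.55, adjusted p = 0.0146). Both calls were lost when all 36685 rows were tested and without each replicate in turn, where the differences were 0.72 to 1.06 for C7 (adjusted p = 0.163 to 0.185) and -0.84 to -0.73 for Serping1 (adjusted p = 0.11 to 0.158). That of C7 was also lost in the fit of the 3 differences within a number (adjusted p = 0.0649).

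**Figure D3:**
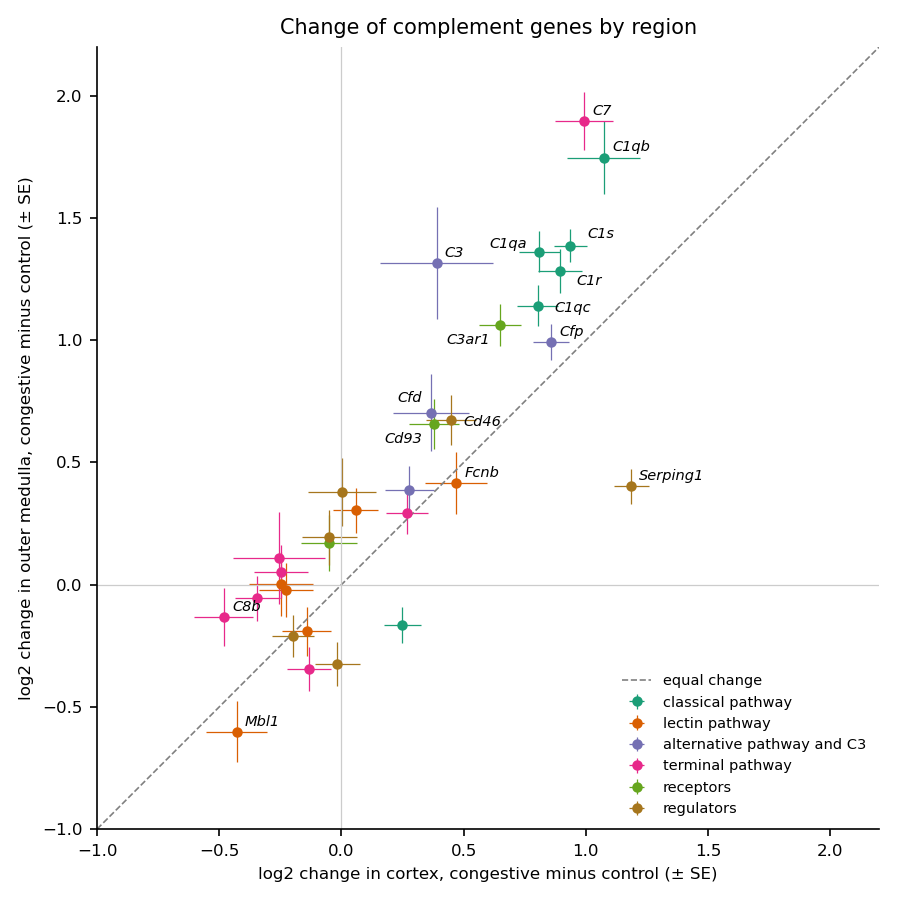
Log2 change, congestive minus control kidney, in OM (vertical axis) against Cx (horizontal axis) for the 32 members, coloured by role, with bars for the SE of the fit and a dashed line of equal change. Of the 11 members called higher in both regions, 10 lie above the line and Serping1 lies below it.

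Of the 11 members that rose in both regions, 10 had the larger value in OM, all except Serping1. The like share among all genes called higher in both regions was not counted, so that this is not shown to be particular to complement. The difference passed the test for C7 alone among the 10. It was 0.55 for C1qa (95% interval 0.28 to 0.83, adjusted p = 0.0689), 0.67 for C1qb (0.18 to 1.16, adjusted p = 0.181), 0.34 for C1qc (0.07 to 0.61, adjusted p = 0.226) and 0.45 for C1s (0.23 to 0.67, adjusted p = 0.0673). For C3, called in OM and not in Cx, it was 0.93 (0.17 to 1.68, adjusted p = 0.23), so that a difference between the regions was not shown. These intervals are for single genes and are not adjusted for the number of genes tested. The macrophage sums given above were higher in OM than in Cx in congestive kidneys and also in control kidneys. Such sums follow the brightest markers. Of the 15 markers, 10 were called higher in OM and 0 lower in congestive kidneys, with a median difference of 0.38. In control kidneys 3 were called higher and 0 lower, with a median of 0.07. The fibroblast sums were higher in OM in congestive kidneys and overlapped in control kidneys (2670 to 3160 in OM and 1820 to 2790 in Cx). The part of either marker list in the differences of the complement genes was not tested.

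The levels of the regions were also set against each other, in a fit with the replicate number as a block. In congestive kidneys 7 members were higher and 4 lower in OM than in Cx, against 10.2% and 10.8% of all genes. In control kidneys 3 were higher and 8 lower, against 12.6% and 11.1%. In control kidneys 5 of these 11 were genes of the terminal route, with C5, C6, C7 and C8b lower and C8g higher in OM. The largest difference among them was that of C8b, with 5.30, 4.88 and 5.31 in control OM and 6.41, 6.60 and 6.54 in control Cx, a difference of -1.35 ± 0.12 (adjusted p = 2.08e-05). In congestive kidneys C8b had 4.94, 5.14 and 5.03 in OM and 5.96, 6.05 and 6.09 in Cx, a difference of -0.999 ± 0.116 (adjusted p = 0.000237). C6 also kept its order, at -0.64 in congestive kidneys (adjusted p = 0.000391) and -0.67 in control kidneys (adjusted p = 0.000201).

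C7 and Serping1 are the members whose region differences were unlike in the 2 kidneys by the test above. C7 differed between OM and Cx by -0.12 ± 0.11 in congestive kidneys (adjusted p = 0.549) and by -1.02 ± 0.11 in control kidneys (adjusted p = 8.58e-05). Serping1 was higher in OM by 0.63 ± 0.08 in congestive kidneys (adjusted p = 0.000349) and by 1.42 ± 0.08 in control kidneys (adjusted p = 1.65e-06), which is 2.67-fold. For both genes the regions were closer together in congestive than in control kidneys. C1r and C1s were higher in OM in congestive kidneys, by 0.64 (adjusted p = 0.00109) and 0.75 (adjusted p = 0.00233), while in control kidneys the differences of 0.25 (adjusted p = 0.0961) and 0.30 (adjusted p = 0.131) did not pass the test.

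**Figure D4:**
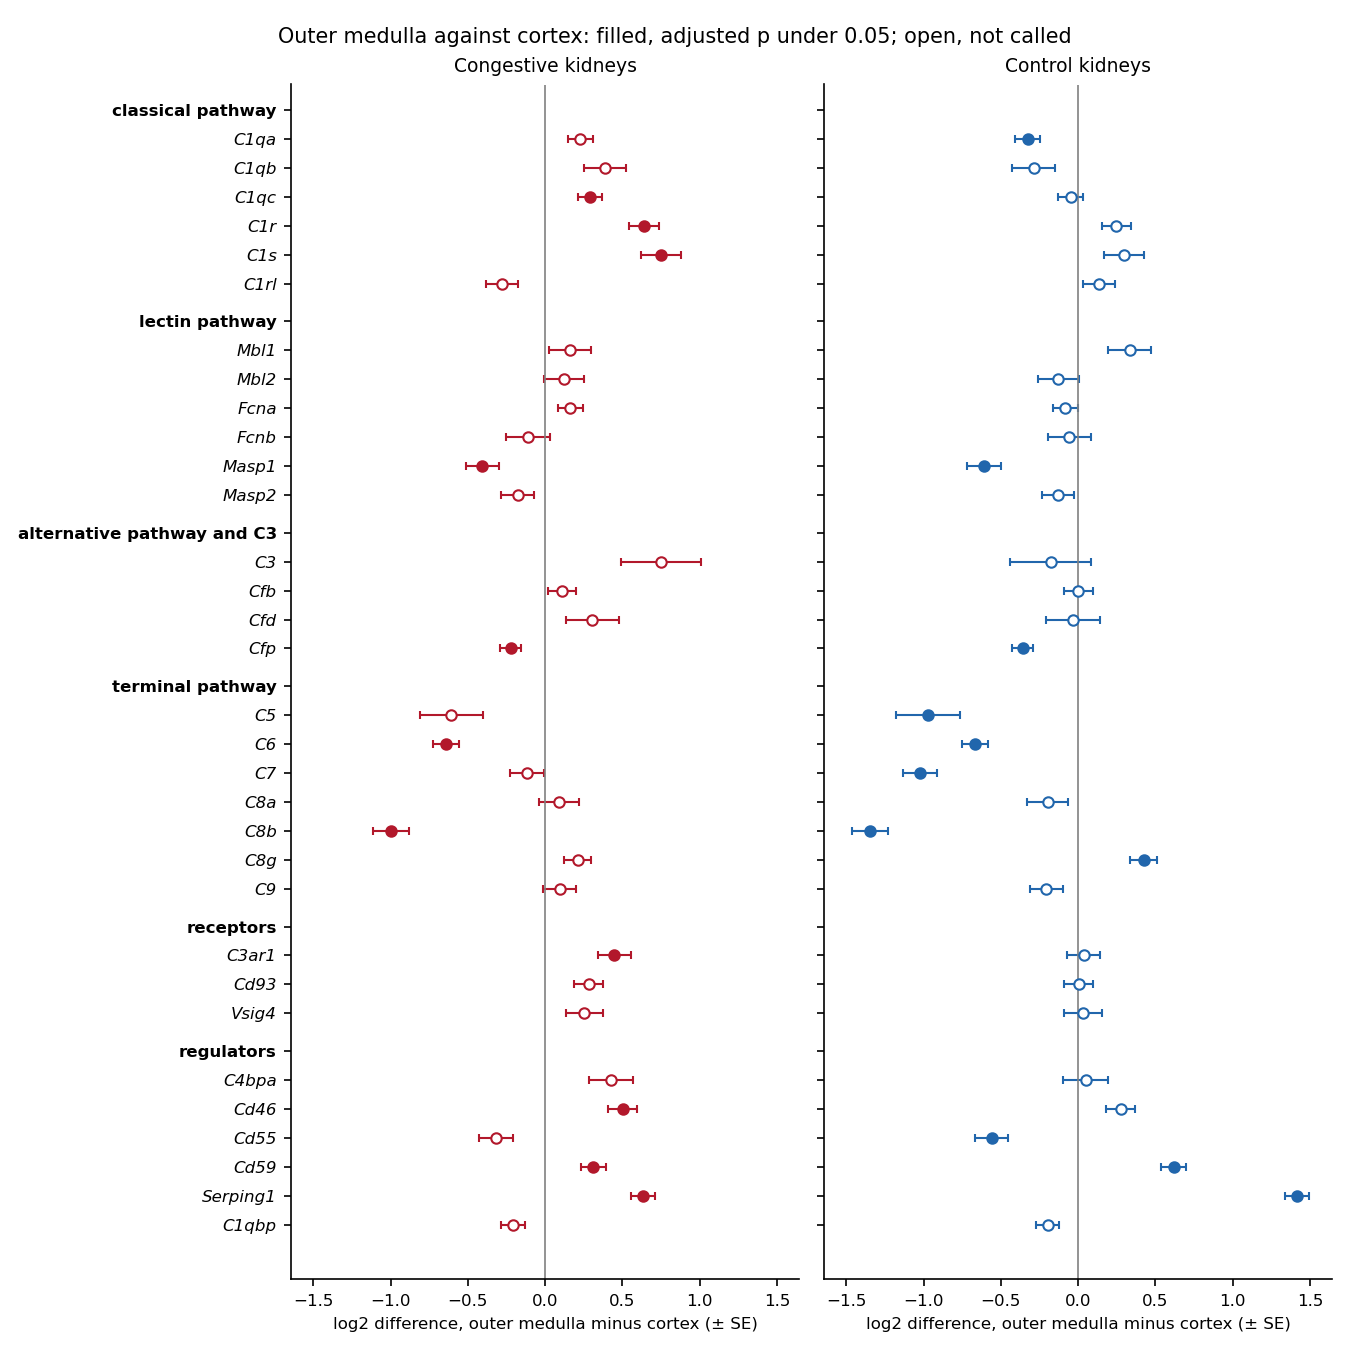
Log2 difference, OM minus Cx, of the 32 members (horizontal axis, point ± SE of the fit) in congestive kidneys (left panel) and control kidneys (right panel), with filled points for adjusted p under 0.05. C7 lies at -0.12 in congestive and -1.02 in control kidneys, and Serping1 at 0.63 in congestive and 1.42 in control kidneys.

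The other region calls in congestive kidneys were Cd46 (0.50), C3ar1 (0.45), Cd59 (0.31) and C1qc (0.29), higher in OM, and Masp1 (-0.41) and Cfp (-0.22), lower in OM. Those of C1qc, Masp1 and Cfp were lost without each replicate in turn, and those of C3ar1 and Cd59 without replicates 1 and 2. Without the replicate block, Cfp (adjusted p = 0.216; over all alternatives 0.0276 to 0.328) and C3ar1 (adjusted p = 0.0912; over all alternatives 0.00526 to 0.221) were not called. In control kidneys Cd59 (0.62) and C8g (0.43) were higher in OM, and C5 (-0.97), Masp1 (-0.61), Cd55 (-0.56), Cfp (-0.36) and C1qa (-0.33) were lower. Of these, C1qa was lost without each replicate in turn, Cfp and C8g without replicate 1, and C5 without replicate 2.

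Of 26 other genes of the pathway, 22 were measured, and 4 rose and 0 fell in each region by limma. Over all genes 11.8% rose and 11.3% fell in OM, and 7.98% rose and 3.64% fell in Cx. At an unadjusted p under 0.05, limma gave 1 of the 22 lower in OM and 2 lower in Cx. The methods' t-test gave 0 of them lower in both. Clusterin (Clu), an inhibitor of pore assembly that injured tubules make, had 12.77, 12.65 and 12.77 in congestive OM and 10.41, 10.46 and 10.29 in control OM, and in Cx 12.84, 12.87 and 12.92 in congestive kidneys and 10.04, 10.04 and 10.07 in control kidneys. Colec12, a scavenger receptor of the collectin family, had 9.72, 9.82 and 9.32 in congestive OM and 7.53, 7.73 and 7.66 in control OM, and in Cx 8.62, 8.69 and 8.21 in congestive kidneys and 7.18, 7.46 and 7.16 in control kidneys. Neither gene's groups overlapped in a region. Colec12 rose by 1.98 ± 0.12 in OM (adjusted p = 4.06e-05) and by 1.24 ± 0.12 in Cx (adjusted p = 0.00081), and Clu rose by 2.34 in OM (adjusted p = 8.21e-06) and by 2.83 in Cx (adjusted p = 8.38e-06). Itgam, the alpha chain of complement receptor 3, rose by 1.08 in OM (adjusted p = 0.00256) and by 0.93 in Cx (adjusted p = 0.0102), where the call was lost without replicate 3. The fourth call was Cr1l in OM, at 0.37, lost without replicates 1 and 2, and Itgb2 in Cx, at 0.43, lost without each replicate in turn and without the pair block (adjusted p = 0.0762; over all alternatives 0.00759 to 0.123). The difference between the changes of the regions was called for 0 of the 22 by limma, and at an unadjusted p under 0.05 it was higher for 1 and lower for 2.

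Between the regions, 2 of these 22 genes were higher and 3 lower in OM than in Cx in congestive kidneys, against 10.2% and 10.8% of all genes. In control kidneys 4 were higher and 2 lower, against 12.6% and 11.1% of all genes. Apcs, a pentraxin that binds C1q, had the largest difference, with 7.77, 7.31 and 8.39 in congestive OM and 10.42, 10.09 and 10.20 in congestive Cx, and 7.97, 8.04 and 7.74 in control OM and 10.59, 10.49 and 10.34 in control Cx. The difference, OM minus Cx, was -2.42 ± 0.21 in congestive kidneys (adjusted p = 4.86e-05) and -2.55 ± 0.21 in control kidneys (adjusted p = 1.72e-05). Vitronectin (Vtn), which blocks insertion of the pore, was higher in OM by 1.36 ± 0.11 in congestive kidneys (adjusted p = 3.54e-05) and by 0.97 ± 0.11 in control kidneys (adjusted p = 0.000145). Cpn1, the catalytic chain of the carboxypeptidase that inactivates C3a and C5a, had differences of -1.004 in congestive kidneys and -0.705 in control kidneys, both called and both lost without replicate 1.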

How the data were processed

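The authors hybridised RNA to GeneChip Rat Gene 2.0 ST arrays and processed them with Affymetrix Expression Console. The deposited values, taken as log2, had been normalized between arrays by the authors (array medians 6.02 to 6.09); summarization, log base and version were not named by any source used here, and raw intensities were not used. Of 36685 rows, 18511 carried 1 gene symbol, 575 several and 17599 none. The brightest row per symbol was kept, leaving 18166 genes.

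Changes were tested with limma 3.58.1 in R 4.3.3 (lmFit, eBayes, Benjamini-Hochberg over all genes, threshold 0.05). The fit over 12 arrays held 6 pair blocks, of region and replicate number, since the 2 kidneys of a number come from 1 rat. Residuals of paired kidneys correlated at 0.169, 0.25 and 0.207 in OM and at -0.000317, 0.137 and 0.344 in Cx. OM minus Cx was tested with 4 groups and the replicate number as a block. For this a number was taken as 1 rat in both regions, and no fit with a block for each kidney was run. For both Cx arrays of replicate 3 the title gives number 3 and another label number 2; the title was used. No batch was labelled. With 3 against 3 and the pairs ignored, an exact permutation test cannot give a p under 0.1, and keeping the pairs raises this floor. The number of arrays limits the precision.

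Full values are given for members called with at least 1.5-fold change in a region, for C1q chains and C3, and for members whose change differed between regions. The array values of the members C5 and C8b are given outside these rules. Other pathway genes have values from a called 2-fold change under congestion. Of those genes, Cr1l, Itgb2, Apcs, Vtn and Cpn1 were picked with their values known. The members, lists and rules were chosen with earlier results of these data known. The fits were tested on simulated data.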

Additional observations from a re-analysis of the deposited data

Results flagged for a closer look

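C7 and Serping1 stand out because their changes under congestion differed between the regions by the test of the difference itself. For C7 the change in OM minus the change in Cx was 0.91 on the log2 scale, from 1.90 in OM and 0.99 in Cx. For Serping1 it was -0.78, from 0.40 in OM and 1.18 in Cx. Both calls were lost without each replicate in turn. C1qa (0.55, adjusted p = 0.0689 by limma) and C1s (0.45, adjusted p = 0.0673) lay just outside the threshold for the same difference. With the trend and robust options both were called (adjusted p = 0.0136 and 0.0128). They were also called with dim genes left out (adjusted p = 0.0394 and 0.0368), and C1s with quantile normalization (adjusted p = 0.0424). The groups hold 3 arrays each, too few for a search for single outlying arrays.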

How the results depend on the processing

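Alternatives were another or no block, other eBayes options, a floor for dim genes, other rows, quantile normalization, each replicate left out, each region fitted alone and the methods' t-test. No direction reversed in them. In every alternative run, 8 of 20 calls of members in OM, 3 of 12 in Cx, 6 of 11 between regions in congestive kidneys, 7 of 11 in control kidneys and 0 of 2 for the difference of changes were kept. Without the pairing of kidneys as a block, 16 members rose and 3 fell in OM, 10 rose and 1 fell in Cx, and 1 was higher and 1 lower for the difference of changes; without the replicate block, 7 were higher and 3 lower in OM than in Cx in congestive kidneys and 3 and 8 in control kidneys. Apart from the losses given beside Fcnb, Cd93, Itgb2, Cfp and C3ar1, and that of Colec12 between regions in control kidneys (0.38, adjusted p = 0.11 without the block, 0.0118 to 0.115 over all alternatives), leaving the block out ended no call. Calls absent with the block and made without it were C4bpa higher in OM than in Cx in congestive kidneys (0.43, adjusted p = 0.0451), the difference of changes of Clu (-0.48, adjusted p = 0.0483), and Cpn2, Thbd and Calr lower in OM than in Cx in control kidneys (adjusted p = 0.0413 to 0.0498).

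With single replicates left out, the members that rose numbered 11 to 15 in OM (11 without replicate 1) and 8 to 9 in Cx, and those that fell 1 to 2 in OM (1 without replicate 1) and 0 in Cx. The difference of changes gave 0 higher and 0 lower. OM against Cx gave 4 to 6 higher (4 without replicate 1) and 2 to 3 lower (2 without replicates 1 and 2) in congestive kidneys, and 2 to 4 higher and 6 to 7 lower in control kidneys. For the other pathway genes, 2 to 3 rose in Cx (2 without replicate 3), 3 to 4 rose in OM and 0 to 1 fell in OM (1 without replicate 3). These fits hold fewer arrays.

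With all 36685 rows tested, 1 member fell in OM and 0 in Cx, and 0 were higher and 0 lower for the difference of changes. The trend and robust options gave 2 members lower in Cx and 3 higher for the difference, leaving out genes with a mean under 5 (4 members: Mbl2, C6, C9 and Vsig4) gave 3 and 3, quantile normalization gave 2 higher for the difference, and the fit of differences within a number gave 0. The methods' t-test, after adjustment, gave 9 higher and 0 lower in OM and 3 higher in Cx, and unadjusted 3 lower in Cx. Causes of these shifts were not tested. Signal over background is not known, which limits what can be said of the dim members.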
